A study of Mus musculus with 10 samples.

Results

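The genes described here are the CB1 cannabinoid receptor gene Cnr1, its interacting-protein gene Cnrip1, and 8 genes for enzymes that make or break down endocannabinoids: Dagla, Daglb, Mgll, Abhd6, Abhd12, Faah, Napepld and Gde1. They were taken by name for their role in the pathway, with earlier results of these data known, and all 10 were found among the 22255 genes measured. Their 46 annotated transcripts are among the 102392 measured, and 45 had counts somewhere.

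The RNA came from hippocampal synaptoneurosomes, a fraction of pinched-off and resealed presynaptic and postsynaptic terminals, of wild-type C57Bl/6J mice. One group of 5 libraries came from mice given AM6545 sub-chronically, and the other group of 5 from mice given vehicle. AM6545 is known as a CB1 antagonist that enters the brain poorly. The dose, the length of treatment, the age and the sex of the mice are not given in the sources used here, nor is it said whether each library came from a separate mouse or pool, so p-values measure only the spread between these libraries.

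CB1 is a Gi/o-coupled receptor of presynaptic terminals. Postsynaptic neurons make the lipid 2-arachidonoylglycerol (2-AG) on demand with diacylglycerol lipases, and 2-AG travels back across the synapse to lower transmitter release through CB1 until lipases hydrolyse it. Anandamide, the other main endocannabinoid, is released from N-acyl phosphatidylethanolamines by several routes and is hydrolysed by fatty acid amide hydrolase.

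Library totals ran from 18106112 to 25899794 estimated counts, and no 2 libraries held identical values. Levels are given in CPM, the count scaled to a common library size after TMM correction for composition. Marker genes of excitatory neurons summed to 2002 to 2446 CPM and those of inhibitory neurons to 376 to 583 CPM. The fraction also held markers of oligodendrocytes (10030 to 21902 CPM), astrocytes (1083 to 1871 CPM) and microglia (405 to 571 CPM). Choroid plexus markers ranged from 58.2 CPM in vehicle replicate 4 to 4876 CPM in vehicle replicate 1. No marker in any of these 6 lists was at 0 in all libraries, and no marker passed the test between groups. In such bulk material, fewer terminals of a type and less RNA per terminal cannot be told apart.

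None of the 10 genes passed the test between AM6545 and vehicle. Each was tested with edgeR's quasi-likelihood test among 14358 genes, with Benjamini-Hochberg adjustment and a threshold of 0.05 on the adjusted p, and 0 of 14358 genes (0%) passed it. At an unadjusted p under 0.05, 0 of the 10 genes and 270 of all genes (1.88%) were counted. The 95% intervals of the 10 differences together covered 0.715-fold to 1.27-fold, and changes within a gene's own interval were not resolved. Single intervals were narrower than that range, such as 0.896-fold to 1.18-fold for Cnr1. The median log2 fold change was -0.07 over the 10 genes and -0.01 over all genes tested. Of the 10 estimates 7 lay below 0, against 51.9% of all genes. The groups overlapped for all 10 genes, where 0.293% of all genes had groups that did not overlap (0.174% higher and 0.118% lower in AM6545).

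**Figure D1:**
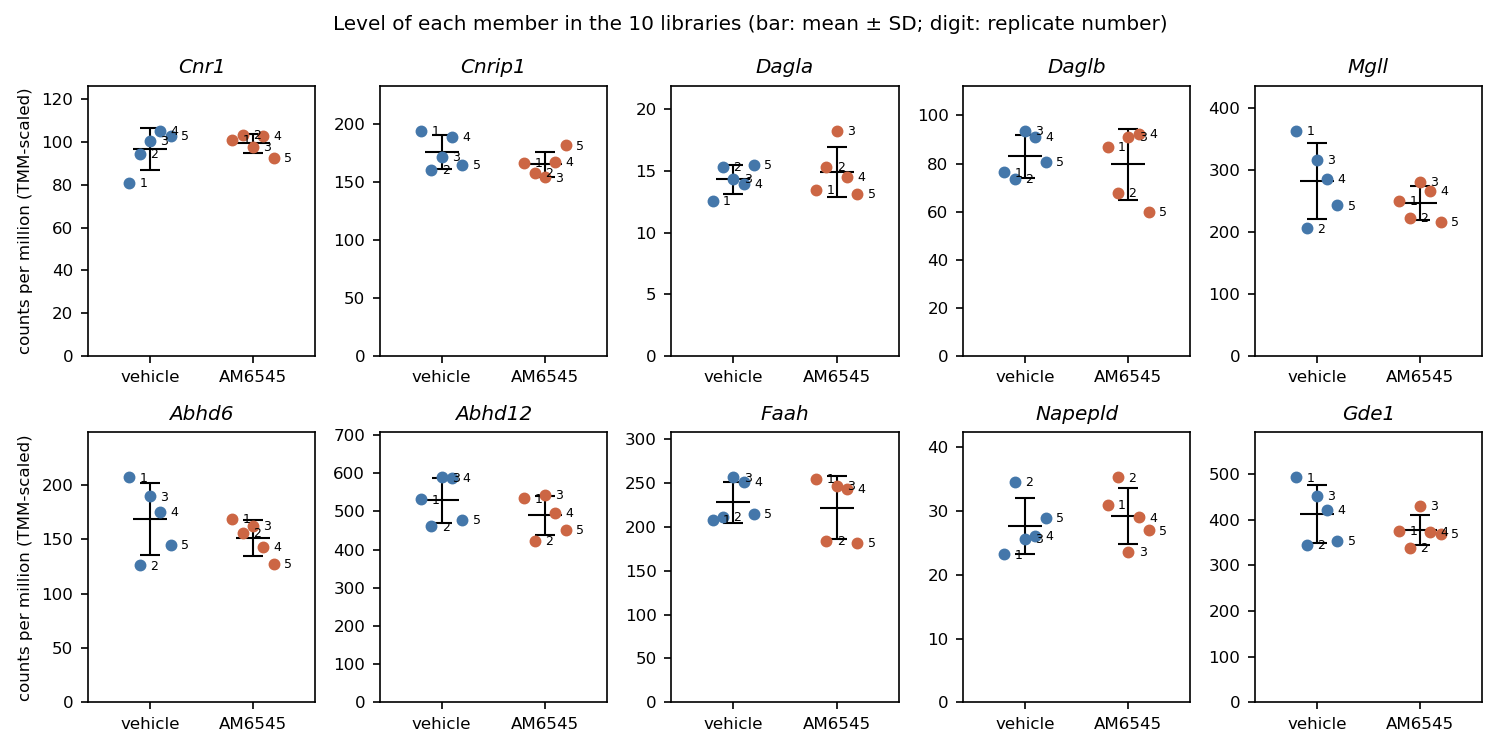
CPM (TMM-scaled, linear axes from 0) of the 10 genes in the 5 vehicle and 5 AM6545 libraries. Points are libraries with their replicate number, and bars are the mean ± SD. The groups overlap in each panel, and vehicle replicate 1 is the lowest library for Cnr1 at 80.8 CPM and the highest for Mgll at 363.6 CPM.

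In CPM, the receptor gene Cnr1 was the steadiest of the 10 across libraries. It stood at 80.8, 94.4, 100.3, 105.1 and 102.8 CPM in vehicle replicates 1 to 5 and at 101.0, 103.3, 97.6, 102.7 and 92.5 CPM in AM6545 replicates 1 to 5. Vehicle replicate 1 was the lowest library, and the other 9 lay between 92.5 and 105.1 CPM with the groups mixed. The means were 96.7 ± 9.73 CPM (SD, n = 5) and 99.4 ± 4.47 CPM (SD, n = 5). This is a log2 fold change of 0.04 (SE 0.09, interval -0.16 to 0.24, edgeR adjusted p = 0.9998). The estimate was -0.02 without vehicle replicate 1. That library also held the lowest sum of excitatory neuron markers, 2002 CPM against 2182 to 2446 CPM in the others, and the lowest of astrocyte markers, 1083 CPM. It held the highest sum of markers of CCK basket interneurons, a class rich in CB1, at 133 CPM against 117 to 132 CPM. Markers of parvalbumin and somatostatin interneurons were highest there too, at 402 CPM. Over the 10 libraries, Pearson's r of Cnr1 with the mean log2 CPM of each list was 0.76 for excitatory neurons and 0.62 for astrocytes. It was -0.47 for CCK basket and -0.63 for parvalbumin and somatostatin interneurons. None passed adjustment over 150 relations between genes and library measures (adjusted permutation p from 0.421 to 0.505). With 2 libraries left out, r was 0.05, -0.01, -0.52 and 0.44 in that order. The part of these cell types in the Cnr1 level of vehicle replicate 1 was not tested. The coefficient of variation of Cnr1 CPM over the 10 libraries was 7.42%, and only 11.5% of the 3339 genes within 2-fold of its level varied less. This rank depends on the scaling. On the per-length scale used further below (TPM), Cnr1 was 32.9 ± 3.48 and Cnrip1 199 ± 12.9, which is the smaller relative spread. Vehicle replicate 1 held 23.7 TPM of Cnr1.

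Cnr1 has 2 annotated first exons that counts could be divided between, both joined to the exon that holds the whole coding sequence of 1419 bases. Transcript Cnr1-201 held 98.1% of the gene's counts. Cnr1-202, whose first exon starts 1570 bases further downstream, held 1.88%, and its share in single libraries ran from 0.304% to 3.64%. The 72 bases just upstream of the start of each first exon are shown because the receptor mRNA came almost wholly from the upstream one. They are from RefSeq promoter sequence on GRCm38.p6, plus strand, and capitals mark CG dinucleotides.
Cnr1-201, chr4:33924560-33924631: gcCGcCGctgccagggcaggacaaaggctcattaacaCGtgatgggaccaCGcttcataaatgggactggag
Cnr1-202, chr4:33926130-33926201: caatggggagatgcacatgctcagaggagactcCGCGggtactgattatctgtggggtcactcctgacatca
The first window holds 4 CG dinucleotides and 58.3% G or C, and the second holds 2 and 54.2%. Of 32851 RefSeq promoters, 38.0% held at least 4 CG in the 72 bases before their start and 55.6% held at least 2, so neither window is unusual by that count. The windows end at the base before each GENCODE start, and the RefSeq starts lie 12 and 178 bases after those GENCODE starts.

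Cnrip1 encodes a small protein that binds the C-terminal tail of CB1 and reduces its constitutive activity. It stood at 194.1, 160.7, 171.4, 188.7 and 164.7 CPM in vehicle replicates 1 to 5 and at 166.3, 157.9, 154.0, 167.2 and 181.7 CPM in AM6545 replicates 1 to 5. The lowest 2 libraries were both from AM6545 and the highest 2 both from vehicle, with the rest mixed. The log2 fold change was -0.09 with an interval from -0.28 to 0.11, the narrowest of the 10 (SE 0.09), and it was -0.05 without vehicle replicate 1.

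Dagla and Daglb encode the diacylglycerol lipases that make 2-AG, and DAGLα is the one known to supply retrograde 2-AG at adult synapses. Dagla stood at 12.6, 15.3, 14.4, 14.0 and 15.5 CPM in vehicle replicates 1 to 5 and at 13.4, 15.3, 18.2, 14.5 and 13.2 CPM in AM6545 replicates 1 to 5. AM6545 replicate 3 was the high library and the rest lay between 12.6 and 15.5 CPM. The log2 fold change was 0.06, with an interval from -0.19 to 0.30, and it was -0.03 without AM6545 replicate 3. Daglb stood at 76.3, 73.7, 93.6, 91.2 and 80.5 CPM in vehicle and at 87.0, 67.8, 91.2, 92.5 and 59.8 CPM in AM6545. Its lowest 2 libraries were AM6545 replicates 5 and 2. The log2 fold change of Daglb was -0.06, with an interval from -0.33 to 0.21, and it was 0.03 without AM6545 replicate 5.

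Daglb counts carry an uncertainty of their own. Of the 4651 bases of its main transcript, Daglb-201, 2309 (49.6%) lie over exons of Rac1 on the opposite strand, and Rac1 was counted at 402 to 587 CPM. Whether strand was used in counting is not given in the sources used here, and without it reads of these bases cannot be told apart. Smaller overlaps on the opposite strand touched Gde1 (14.5% of its main transcript, by Gm45236), Cnrip1 (10.04%, by Plek) and Mgll (6.05%, by Gm26588). For Abhd6, 11.1% of the 31-base words of its main transcript also occur in transcripts of Gm1833, and for Dagla and Abhd12 no word occurs in another gene.

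Mgll encodes monoacylglycerol lipase, the main 2-AG hydrolase of the brain, and in CPM it varied most between libraries. It stood at 363.6, 206.2, 317.3, 286.0 and 243.3 CPM in vehicle replicates 1 to 5 and at 249.9, 223.3, 281.5, 266.4 and 216.5 CPM in AM6545 replicates 1 to 5. Vehicle replicates 1, 3 and 4 were the high libraries, but vehicle replicate 2 was the lowest of all 10. The means were 283 ± 61.6 CPM in vehicle and 248 ± 27.7 CPM in AM6545 (SD, n = 5 each). This is a log2 fold change of -0.19 (SE 0.14, interval -0.48 to 0.09, edgeR unadjusted p = 0.172 and adjusted p = 0.9998). With all libraries this was the largest difference of the 10, and 16.2% of all genes had a larger one. Single vehicle libraries moved it: the estimate was -0.09 without vehicle replicate 1, below the size of that of Abhd12 in the same fit (-0.11), and -0.29 without vehicle replicate 2 (edgeR unadjusted p = 0.0319). The coefficient of variation was 18.4%, above that of 90.4% of the 1252 genes within 2-fold of its level.

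Abhd6 and Abhd12 encode membrane hydrolases that share the breakdown of 2-AG with monoacylglycerol lipase; Abhd12 is also known as a lysophosphatidylserine lipase. Abhd6 stood at 206.6, 125.8, 189.2, 175.3 and 144.9 CPM in vehicle and at 168.5, 155.7, 162.1, 143.1 and 127.2 CPM in AM6545. As with Mgll, vehicle replicates 1, 3 and 4 were the highest and vehicle replicate 2 the lowest. Its log2 fold change was -0.15, with an interval from -0.43 to 0.12, and it was -0.07 without vehicle replicate 1, -0.10 without AM6545 replicate 5 and -0.24 without vehicle replicate 2. Abhd12 stood at 531.2, 460.4, 588.5, 586.4 and 478.5 CPM in vehicle and at 533.9, 422.5, 543.5, 494.7 and 451.3 CPM in AM6545. Vehicle replicates 3 and 4 were the high libraries and AM6545 replicate 2 the low one. Its log2 fold change was -0.11, with an interval from -0.34 to 0.12, and it was -0.07 without vehicle replicate 3 or 4 and -0.06 without AM6545 replicate 2.

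Faah encodes fatty acid amide hydrolase, the main anandamide-degrading enzyme. It stood at 207.8, 211.5, 256.0, 250.9 and 214.2 CPM in vehicle and at 253.9, 183.4, 246.0, 243.3 and 181.4 CPM in AM6545. A high set of 243.3 to 256.0 CPM held 2 vehicle and 3 AM6545 libraries, and the rest lay at 181.4 to 214.2 CPM. The log2 fold change was -0.04 (interval -0.29 to 0.21), and it turned above 0, to at most 0.02, without vehicle replicate 3, AM6545 replicate 2 or AM6545 replicate 5.

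Napepld and Gde1 encode enzymes of anandamide synthesis: NAPE-PLD releases anandamide in 1 step, and GDE1 cleaves the glycerophospho-anandamide of another route. Napepld stood at 23.2, 34.6, 25.6, 26.1 and 28.9 CPM in vehicle and at 31.01, 35.3, 23.5, 29.0 and 26.9 CPM in AM6545. Replicate 2 was the highest in each group. Its log2 fold change was 0.07 (interval -0.19 to 0.34), and it was -0.0016 without AM6545 replicate 2. Gde1 stood at 492.7, 345.2, 451.7, 421.1 and 354.4 CPM in vehicle and at 376.0, 338.2, 430.6, 372.7 and 368.6 CPM in AM6545. Vehicle replicate 1 was the high library and replicate 2 of each group the lowest. Its log2 fold change was -0.13 (interval -0.37 to 0.11), and it was -0.06 without vehicle replicate 1.

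**Figure D2:**
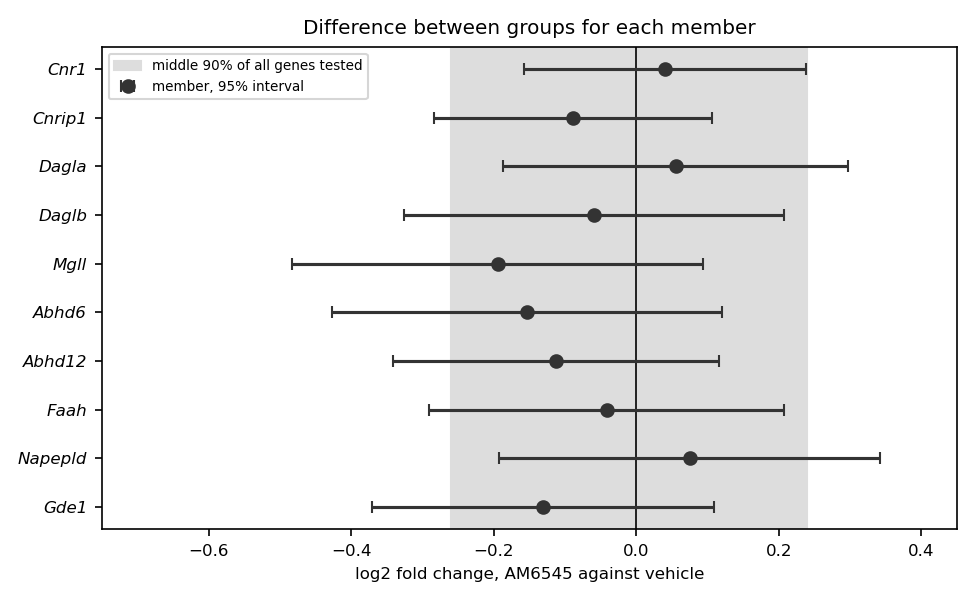
Log2 fold change of each gene, AM6545 against vehicle, with its 95% interval from edgeR's fit. The grey band holds the middle 90% of all 14358 genes, from -0.26 to 0.24. Each interval crosses 0, and all 10 points lie inside the band.

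Levels were compared between genes per transcript length, as TPM (counts per base of annotated length, scaled to a common sum; mean ± SD over 10 libraries). The highest were Abhd12 at 502 ± 48.0, Gde1 at 489 ± 39.7 and Mgll at 381 ± 57.3 TPM. Abhd12 exceeded Gde1 in 7 of 10 libraries, so their order was not fixed, and Gde1 exceeded Mgll in all 10 although their ranges overlapped. Cnrip1 followed at 199 ± 12.9, then Abhd6 at 143 ± 16.5 and Faah at 121 ± 16.5, whose ranges overlapped. Daglb at 34.1 ± 4.90 and Cnr1 at 32.9 ± 3.48 did not differ beyond their spread, with Daglb higher in 6 of 10 libraries. Napepld at 14.4 ± 2.79 and Dagla at 5.05 ± 0.68 TPM were the lowest, and their ranges did not touch each other or those of the genes above. The order also followed length. Main transcripts were 1025 to 2226 bases long for Abhd12, Gde1, Mgll, Cnrip1 and Abhd6. For Faah, Daglb, Cnr1, Napepld and Dagla they were 3827 to 5807 bases long. The part of transcript length in these levels and in ratios between genes was not tested.

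On the same per-length scale, the 2-AG hydrolase gene Mgll exceeded the 2-AG synthase gene Dagla in every library, and the ratio did not separate the groups. The median library held 70.7 times as much Mgll as Dagla, 6.84 times as much Daglb as Dagla and 8.85 times as much Faah as Napepld. The Mgll level sums all its transcripts. Of it, 53.0 ± 2.99% in vehicle and 52.4 ± 2.48% in AM6545 lay on Mgll-209, which is annotated as a target of nonsense-mediated decay. The size of the Mgll ratio therefore rests on how counts were divided between transcripts of unlike length. The log2 ratio of Dagla over Mgll was -7.00, -5.84, -6.58, -6.41 and -6.02 in vehicle replicates 1 to 5 and -6.28, -5.91, -6.02, -6.21 and -6.07 in AM6545 replicates 1 to 5. The AM6545 libraries lay inside the vehicle range. The means differed by 0.27 (two-sided exact permutation p = 0.254, adjusted over the 3 ratios 0.571), where 0.00794 is the smallest p that 5 against 5 allows. For Dagla over Daglb the difference was 0.13 (exact permutation p = 0.381, adjusted 0.571), and for Napepld over Faah it was 0.11 (exact permutation p = 0.611, adjusted 0.611). The last of these was -0.02 without AM6545 replicate 2.

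Although no gene separated the groups, several rose and fell together from library to library. Pearson's r of log2 CPM over the 10 libraries was computed for all 45 pairs, with 100000 permutations and Benjamini-Hochberg adjustment over the 45, and 11 pairs had an adjusted p under 0.05 by both Pearson's r and Spearman's rho. All 11 kept their sign under scaling by library totals or by DESeq2 size factors. Of the 45 pairs 5 had an r of at least 0.8, against 1.66% of all pairs of genes tested. An r of -0.8 or lower was found for 2, against 1.21%. At 0.9 or more in size, 3 were positive, against 0.30%, and 0 negative, against 0.15%. How many of all pairs would pass the permutation test was not computed. In the 8 positive pairs, the partner's rank among 14357 genes ran from 4 (Faah with Daglb) to 554 (Abhd12 with Mgll). In the 3 negative pairs it ran from 19 (Gde1 with Napepld) to 699 (Napepld with Mgll), counted from the lowest r. Many other genes were thus correlated with Mgll more strongly than Abhd12 or Napepld was. The pairs share their 10 libraries and their scaling, and the 45 are not independent of each other.

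**Figure D3:**
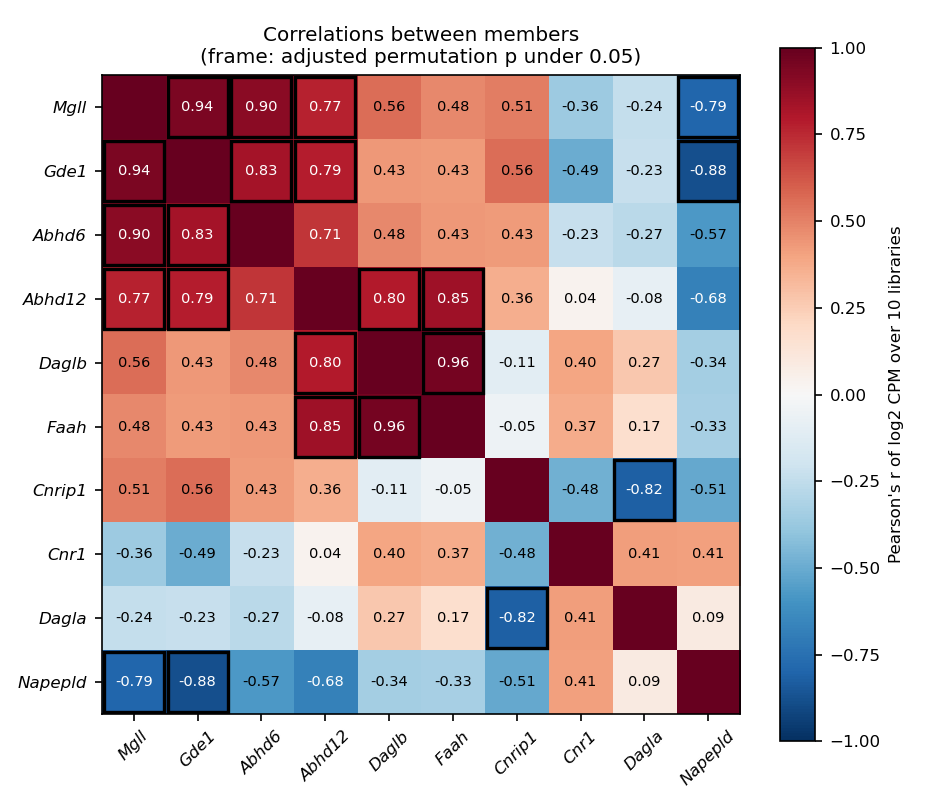
Pearson's r of log2 CPM between each pair of the 10 genes over the 10 libraries, as numbers and colour from -1 to 1. Frames mark the 11 pairs with an adjusted permutation p under 0.05: 8 positive pairs among Mgll, Gde1, Abhd6, Abhd12, Daglb and Faah, and 3 negative pairs of Napepld with Mgll and Gde1 and of Cnrip1 with Dagla.

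Daglb and Faah had the highest correlation, r = 0.96 and rho = 0.87 (permutation p = 0.00013, adjusted 0.0029; adjusted for rho 0.01998). The lowest Daglb libraries, AM6545 replicates 5 and 2, were also the lowest for Faah, and r was 0.92 without them (exact permutation p = 0.0081, n = 8). Among 14357 other genes, Faah ranked 4th by correlation with Daglb. After each group's mean was removed, r was again 0.96. These 2 genes also had the highest correlations with the microglia markers (mean log2 CPM of the list), r = 0.87 for Daglb and 0.84 for Faah, although neither passed adjustment over the 150 relations between genes and library measures (adjusted permutation p = 0.159 and 0.205). The part of microglial RNA in the relation was not tested.

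Mgll and Gde1 followed with r = 0.94 and rho = 0.92 (permutation p = 5e-05, adjusted 0.00225; adjusted for rho 0.0195). Vehicle replicates 1 and 2 were the extremes for Mgll, and r was 0.89 without them (exact permutation p = 0.00330, n = 8). Mgll and Abhd6 had r = 0.90 and rho = 0.89 (adjusted permutation p = 0.00645, adjusted for rho 0.0195), and r = 0.78 without the same libraries (exact permutation p = 0.0222, n = 8). Within groups, r of Mgll and Abhd6 was 0.99 in vehicle and 0.51 in AM6545, and that of Mgll and Gde1 was 0.98 and 0.78 (n = 5 each). Vehicle replicates 1 and 3 were the highest 2 libraries for all 3 genes.

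Abhd12 was correlated with members of both sets. Its r was 0.85 with Faah, 0.80 with Daglb, 0.79 with Gde1 and 0.77 with Mgll (adjusted permutation p = 0.0203, 0.0339, 0.0360 and 0.0404), with rho between 0.81 and 0.88. Without the 2 libraries farthest from the median, r was 0.75 with Faah (exact permutation p = 0.0335, n = 8) and 0.91 with Mgll (p = 0.00248). It was 0.66 for Daglb and Abhd12 (exact permutation p = 0.0788, n = 8) and 0.68 for Abhd12 and Gde1 (p = 0.0613), so with 8 libraries these 2 relations kept their direction and did not pass the test. For Abhd6 and Gde1, r = 0.83 and rho = 0.81 (adjusted permutation p = 0.0222) over all libraries, and r was 0.68 with 8 of them (exact permutation p = 0.0666, n = 8). Within groups, r of Abhd6 and Gde1 was 0.98 in vehicle and 0.26 in AM6545, whereas Abhd12 and Faah had 0.84 and 0.93 (n = 5 each). Whether the groups differ in this was not tested.

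Napepld ran against Gde1, with r = -0.88 and rho = -0.88 (permutation p = 0.00092, adjusted 0.0104). Libraries with the most Napepld, replicate 2 of each group, had the least Gde1, and r was -0.84 without them (exact permutation p = 0.0119, n = 8). Napepld also ran against Mgll, with r = -0.79 and rho = -0.78 (adjusted permutation p = 0.0347), but this became -0.63 without vehicle replicates 1 and 2 (exact permutation p = 0.0943, n = 8). Within groups, r of Napepld and Mgll was -0.98 in vehicle and -0.54 in AM6545, and that of Napepld and Gde1 was -0.92 and -0.91 (n = 5 each). Cnrip1 ran against Dagla with r = -0.82 and rho = -0.85 (adjusted permutation p = 0.0203), and r was -0.84 without vehicle replicates 1 and 4 (exact permutation p = 0.0124, n = 8). Cnr1 was in none of the 11 pairs.

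**Figure D4:**
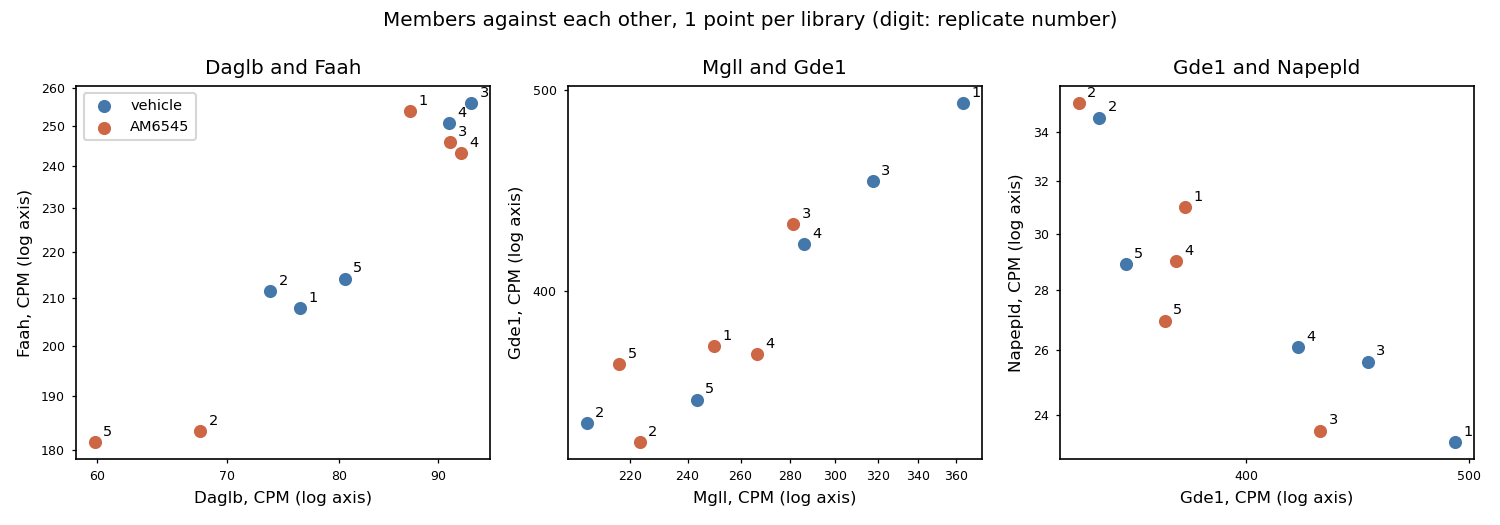
CPM of Faah against Daglb, Gde1 against Mgll and Napepld against Gde1, on log axes, with 1 point per library coloured by group and marked with its replicate number. Daglb and Faah (r = 0.96) and Mgll and Gde1 (r = 0.94) rise together, Napepld falls as Gde1 rises (r = -0.88), and both groups are mixed along each trend.

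The 5 genes whose profile over the 10 libraries was most like that of Cnr1 were Rufy3, Shank2, Cmpk2, Ccdc82 and Gria4. Likeness was the root mean square difference of mean-centred log2 CPM, which was 0.04 for Rufy3, 0.05 for Shank2, Cmpk2 and Ccdc82, and 0.06 for Gria4, against a median of 0.22 over 14357 genes. Each of the 5 was lowest in vehicle replicate 1, as Cnr1 was. Among the other 9 genes described here Dagla was the closest to Cnr1, at rank 1828.

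Transcript estimates divided the counts of 3 genes, Mgll, Abhd6 and Napepld, while 1 transcript held at least 94.4% in each of the other 7. Of the 46 transcripts 31 passed the filter on low counts, and 0 of them passed edgeR's test, where 1 of 31848 transcripts (0.00314%) did. The test of transcript usage within genes called 0 of 30, against 5 of 25724 transcripts (0.0194%), and its smallest unadjusted p among the 30 was 0.0802. Over transcripts as a whole, both tests had low power at these spreads. In simulated data with the real means and depths, 10 of 50 transcripts changed 2-fold were called by the transcript test. The usage test called 1 of 50, and also 22 of 22774 unchanged transcripts. With a low spread set for every transcript, it called 37 of 50 changed 2-fold. The changed transcripts were picked without regard to the genes described here, so power for the transcripts named here was not measured.

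Napepld was estimated as 2 transcripts that encode the same 1188 bases and differ in the 5′ untranslated first exon. Both start within 2 bases of each other on the minus strand of chromosome 5 (GRCm38), and the first exon spans 21701205 to 21701396 in Napepld-201 and 21700975 to 21701394 in Napepld-202, which splices 230 bases further downstream. The 2 transcripts share 3722 bases, and only 232 bases are particular to Napepld-202 and 2 to Napepld-201, so reads over these or over the first junction are all that tells them apart. Napepld-202 held 52.7%, 47.6%, 42.2%, 47.8% and 39.9% of the gene's counts in vehicle replicates 1 to 5 and 67.7%, 53.8%, 67.1%, 62.2% and 80.7% in AM6545 replicates 1 to 5. Every AM6545 library lay above every vehicle library, the nearest being vehicle replicate 1 at 52.7% and AM6545 replicate 2 at 53.8%.

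The mean share of Napepld-202 was 46.0 ± 5.07% in vehicle and 66.3 ± 9.77% in AM6545 (SD, n = 5 each). The 2 shares sum to 100%, so this is 1 difference and not 2. It was singled out after its values were seen, as the only gene of the 10 whose transcript shares did not overlap. Of all transcripts in genes with several, 0.645% had shares that did not overlap in either direction and 0.342% were higher in AM6545. The exact permutation p of 0.00794 is the smallest that 5 against 5 can give, and it is unadjusted. The edgeR usage test gave unadjusted p = 0.125 for Napepld-202 and 0.0842 for Napepld-201, so the difference did not pass in the test across all transcripts. As a transcript, Napepld-202 averaged 12.8 ± 2.36 CPM among vehicle libraries and 19.2 ± 2.35 CPM among AM6545 libraries, or 0.59 higher on the log2 scale (SE 0.14, edgeR unadjusted p = 0.00194 and adjusted p = 0.9999, rank 14 of 31848). Napepld-201 stood at 15.1 ± 2.98 and 10.1 ± 4.15 CPM. Napepld-202 counts ran from 208 to 540 per library. Without any 1 library the share difference was between 16.7 and 23.4 percentage points; that the groups stay apart is fixed by the choice of this transcript.

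**Figure D5:**
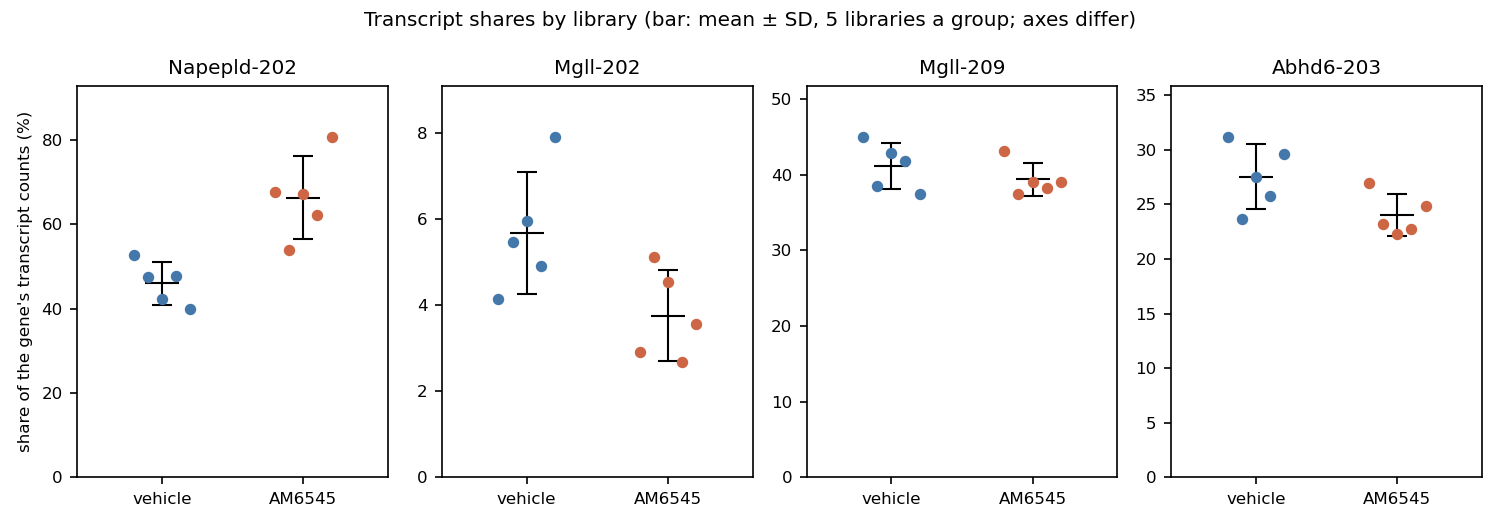
Share of the gene's transcript counts in percent for Napepld-202, Mgll-202, Mgll-209 and Abhd6-203, by library (points) with mean ± SD (bars), on linear axes from 0 that differ between panels. The Napepld-202 shares do not overlap, at 39.9% to 52.7% in vehicle and 53.8% to 80.7% in AM6545, while the other 3 panels overlap.

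Mgll counts fell on transcripts that differ within the coding sequence. Mgll-209, which GENCODE annotates as a target of nonsense-mediated decay, held 40.6% of the counts, Mgll-207 24.9%, Mgll-203 22.2% and Mgll-202 4.67%. Per transcript length, the short Mgll-209 held 53.0 ± 2.99% in vehicle and 52.4 ± 2.48% in AM6545. It joins the second exon to the fourth and leaves out the third, of 107 bases at chr6:88764596-88764702, a length that is not a multiple of 3. All 1025 bases of Mgll-209 also lie in Mgll-207. Only reads over this junction and the place of reads along the transcripts tell the 2 apart, so its share is an uncertain estimate. The 30-base junctions with and without the third exon are shown because the transcript that lacks this exon had the highest estimate. They come from GENCODE M21 transcripts, plus strand, with capitals for the bases after the junction.
With the third exon: cagtggcacacccaaGGCCCTCATCTTTGT
Without the third exon: cagtggcacacccaaTTGGCCATGGGCAGA
Transcripts annotated with the third exon held 58.7 ± 3.01% of the estimated counts in vehicle and 60.3 ± 2.08% in AM6545. These are sums of whole-transcript estimates, not counts of junction reads, and they depend on transcript length. Per transcript length, Mgll-209 alone averaged 53.0% in vehicle and 52.4% in AM6545, as given above. Mgll-209 accounted for 41.1 ± 3.09% and 39.4 ± 2.18% (mean ± SD over 5 libraries a group, exact permutation p = 0.357).

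A second choice lies at the seventh exon of Mgll-207, which is 216 bases long and is the sixth exon of Mgll-209. It is 81 bases long in Mgll-203, where an acceptor 135 bases further in is used. The 135 bases are 45 codons, so the frame is kept.
Long seventh exon: cggaacaagtcggagGTTGACCTGTACAAC
Short seventh exon: cggaacaagtcggagGGTTCTGCTGACCGG
Mgll-203, which has the short form, held 22.5 ± 2.16% of the estimated counts in vehicle libraries and 22.1 ± 0.68% in AM6545 libraries (exact permutation p = 0.675, n = 5 each). By summed transcript estimates the 2 first exons were divided alike in both groups. Transcripts whose first exon ends at base 88724571 held 31.3 ± 1.31% in vehicle and 30.9 ± 1.63% in AM6545.

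Mgll-202 carries an extra coding exon, its sixth, of 84 bases or 28 codons at chr6:88813880-88813963, shown because this was the other transcript with an unadjusted p under 0.05.
Mgll-202 sixth exon: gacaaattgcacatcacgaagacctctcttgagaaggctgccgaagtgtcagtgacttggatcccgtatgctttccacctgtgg
Its share was 4.14%, 5.48%, 5.95%, 4.91% and 7.91% in vehicle replicates 1 to 5 and 2.91%, 5.13%, 4.53%, 2.68% and 3.57% in AM6545 replicates 1 to 5. AM6545 replicates 2 and 3 lay inside the vehicle range. The means were 5.68 ± 1.42% and 3.76 ± 1.05% (exact permutation p = 0.0476, unadjusted, n = 5 each), and leaving out 1 library moved that p to at most 0.0952. In CPM the transcript differed by -0.76 on the log2 scale (SE 0.22, edgeR unadjusted p = 0.00545 and adjusted p = 0.9999, rank 45 of 31848), and 4 of 5 AM6545 libraries lay below every vehicle library in CPM. At an unadjusted p under 0.05, 2 of 31 transcripts were counted here against 1.97% of all transcripts. In CPM the groups overlapped for all 31, against 0.575% of all transcripts without overlap.

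Mgll-204, chosen after its values were seen, differed in the other direction. Its share was 2.54%, 1.61%, 2.84%, 4.38% and 3.05% in vehicle replicates 1 to 5 and 5.39%, 4.68%, 4.83%, 4.91% and 3.85% in AM6545 replicates 1 to 5, with vehicle replicate 4 above AM6545 replicate 5. The mean shares were 2.884 ± 1.002% and 4.73 ± 0.56% (SD, exact permutation p = 0.0159, unadjusted, n = 5 each), and the edgeR usage test gave an unadjusted p = 0.0802 and an adjusted p = 0.999999. Transcript shares of a gene have a fixed sum, so the differences of Mgll-202 and Mgll-204 are not independent results.

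The division between Mgll transcripts that share most of their sequence stood apart in 1 library. In AM6545 replicate 2, Mgll-201 took 13.0% of the counts and Mgll-207 14.995%, whereas in the other 9 libraries Mgll-201 had at most 1.46% and Mgll-207 between 20.1% and 29.7%. Both carry the long last exon of 2710 bases, as Mgll-204 does. The summed estimates of these transcripts were 28.1 ± 3.11% of the counts in vehicle and 32.2 ± 1.73% in AM6545 (exact permutation p = 0.0476, unadjusted, n = 5 each).

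Abhd6 was divided between Abhd6-202, with 73.9% of the counts, and Abhd6-203, with 26.1%, which lacks the second exon with the start codon of the longer form and has a coding length of 867 against 1008 bases. Abhd6-203 held 31.2%, 23.6%, 27.5%, 25.8% and 29.6% in vehicle replicates 1 to 5 and 27.0%, 23.2%, 22.3%, 22.7% and 24.8% in AM6545 replicates 1 to 5. Vehicle replicates 2 and 4 lay inside the AM6545 range. The vehicle mean was 27.5 ± 2.99%, and the AM6545 mean differed from it by -3.54 percentage points (AM6545 SD 1.92, exact permutation p = 0.0635, n = 5 each).

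The wider pathway was described with a list of 44 other genes, of which 34 passed the filter on low counts. None of the 34 passed edgeR's test and none had an unadjusted p under 0.05, against 1.88% of all genes. Their median log2 fold change was 0.04, from -0.17 to 0.32, with 22 above 0 and 12 below. The smallest p belonged to Grk3, a kinase that phosphorylates activated CB1 (log2 fold change 0.22, SE 0.10, edgeR unadjusted p = 0.0501, adjusted p = 0.9998), followed by the phospholipase C gene Plcb2 (0.32, unadjusted p = 0.151). All 6 regulators of receptor signalling and trafficking, Sgip1, Gprasp1, Arrb1, Arrb2, Grk2 and Grk3, had estimates above 0, between 0.06 and 0.22, while 51.9% of all genes lay below 0. Among the lipid carriers, Fabp3, Fabp5 and Scp2 had estimates below 0 and Fabp7 above. None of these passed the test. Of the other receptors for these lipids, Cnr2, Gpr55, Gpr18, Gpr119 and Trpv1 had at most 11 counts in any library and were not tested. The nuclear receptor genes Ppara (44 to 126 counts, log2 fold change -0.04) and Pparg (34 to 59 counts, -0.14) were tested and did not pass.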

How the data were processed

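Per the labels' protocols, a SMARTer Ultra Low Input kit, which amplifies cDNA, was used on hippocampal synaptoneurosome RNA. The authors deposited estimated counts per gene and per transcript for 10 libraries. The submitters' processing notes name Salmon 1.5.2 and mm10. How the gene counts were formed and whether strand was used are not given in the sources used here. The deposited estimates were rounded for the count tests, and for each of the 10 genes the gene count equalled the sum over its transcripts. Names, coordinates, lengths and exons are from GENCODE M21 (GRCm38, which is mm10), and promoter windows from RefSeq (GRCm38.p6).

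Genes and transcripts were kept by filterByExpr (minimum count 10, minimum total 15), scaled by TMM and tested with edgeR 4.0.16 (quasi-likelihood, robust, group as the only term) in R 4.3.3, over all features. Transcript usage was tested with edgeR's diffSpliceDGE. CPM values are TMM-scaled, and log2 CPM has a prior count of 2. Per-length levels use annotated, not effective, lengths. Single values were compared by two-sided exact permutation over 252 arrangements. Precision is limited by 5 libraries a group and by depth. Libraries made by amplification without molecular identifiers count reads, not molecules.

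The design assumed no covariate. The labels give no pairing, so libraries with the same replicate number were treated as unpaired in the main fit. Correlations of same-numbered deviations ran from -0.19 to 0.39, and 3 of 5 vehicle libraries correlated best with the AM6545 library of their own number. With 5 pairs these values do not decide whether same-numbered libraries were handled together. Alternatives were DESeq2 1.42.0, other scalings and filters, a replicate block, and leaving out each library.

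The genes and lists were chosen with earlier results of these data known. By the rule for names, the text names all 10 genes, their transcripts with at least 5% of the gene's counts or an unadjusted p under 0.05, the wider-list genes with an unadjusted p under 0.05 or else the 2 with the smallest p, and the 5 genes most like Cnr1. Other names were chosen after their values were seen. The tests were tested on simulated data: with 14358 genes, 79 of 150 changed 1.5-fold and 130 of 150 changed 2-fold were called, and 26 of 42176 unchanged. No library was left out of the main results.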

Additional observations from a re-analysis of the deposited data

How the results depend on the processing

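None of the 10 genes, none of the 34 tested genes of the wider list and none of the 30 transcripts tested for usage passed its threshold under any alternative run. No estimate of the 10 genes changed sign under the 6 alternatives with other scalings or filters, DESeq2 or a replicate block. Leaving out 1 library turned the sign of 5 of them: Cnr1 (-0.018 to 0.072), Dagla (-0.0255 to 0.097), Daglb (-0.119 to 0.0275), Faah (-0.102 to 0.0229) and Napepld (-0.0016 to 0.168). The other 5 kept their sign, with Mgll at -0.289 to -0.088, Abhd6 at -0.242 to -0.069, Gde1 at -0.189 to -0.059, Abhd12 at -0.159 to -0.064 and Cnrip1 at -0.124 to -0.051. Values past 0 were -0.018 for Cnr1 without vehicle replicate 1, -0.0255 for Dagla without AM6545 replicate 3, 0.0275 for Daglb without AM6545 replicate 5, 0.0039, 0.0199 and 0.0229 for Faah without vehicle replicate 3, AM6545 replicate 2 and AM6545 replicate 5, and -0.0016 for Napepld without AM6545 replicate 2. Among transcripts the same libraries gave -0.033 for Cnr1-201 (to 0.055), 0.0231 for Daglb-201 (from -0.123) and 0.00069, 0.0196 and 0.0114 for Faah-201 (from -0.103), and Mgll-207 ranged from -0.255 to 0.00499, the latter without AM6545 replicate 2. The log2 ratio of Napepld over Faah ranged from -0.0237 to 0.233, with -0.0237 without AM6545 replicate 2. The cause was not tested.

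Over all features, leaving out 1 library gave 0 to 1 genes called, 0 to 4 transcripts and 10 to 22 transcripts by usage. DESeq2 called 11 transcripts, and edgeR 2 with no filter and 0 with at least 10 counts in every library. Usage called 349 transcripts with no filter, where more low-count transcripts enter, and 2 with at least 10 counts. With the replicate number as a block, 0 transcripts were called for level and 11 for usage, and 0 genes. By deviations from the group means, 3 of 5 vehicle libraries correlated best with the AM6545 library of the same number. Shares and correlations were examined without each library after the data were seen: the Napepld-202 difference ranged from 16.7 to 23.4 percentage points, the Mgll-202 difference (-2.30 to -1.36) missed an exact permutation p of 0.05 without any of 6 libraries and the Abhd6-203 difference (-4.52 to -2.63) reached it without either of 2. Correlations kept their sign throughout, with 0.95 to 0.97 for Daglb and Faah, 0.90 to 0.96 for Mgll and Gde1 and -0.92 to -0.85 for Napepld and Gde1.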
